A study of Mus musculus with 4 samples.

Results

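*Ung*, *Msh6*, *Polh*, *Exo1*, *Apex1*, *Neil1*, *Nuggc* and *Top1*, 8 genes of repair and DNA handling that act around the deaminase AID in somatic hypermutation, were followed by name in the mRNA libraries. They were taken as listed, with earlier results of these data known, and are 8 of the 32285 genes in each mRNA matrix. Spleen B cells came from 6 wild-type CD45.1+ recipient mice on day 8 after immunization with HEL-coupled sheep red blood cells (SRBC-HEL), 3 mice per group. Every recipient had received a mixture of MD4 B cells, which carry a transgenic B cell receptor for HEL. CD45.1+ *Dock8* wt/wt cells without a BCL2 transgene were part of the mixture in both groups. The CD45.2+ part of the mixture was BCL2-transgenic (BCL2.Tg), from *Dock8* wt/wt donors in one group and *Dock8* cpm/cpm donors in the other, where cpm is a chemically induced allele that leaves no functional DOCK8 protein. Donors and recipients were 8 to 12 weeks old and of both sexes. HEL-binding CD95+ cells were sorted as CD45.1+ or CD45.2+, mice were marked by hashtags, and each sort was 1 pooled 3′ library, so that sort, transgene, allotype and library cannot be told apart.

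The hashtags assigned 6488 CD45.2+ and 3204 CD45.1+ cells to a mouse, of which 6 barcode sequences occurred in both sorts. Wild-type-labelled mice gave 1672 to 2607 CD45.2+ cells each and cpm-labelled mice 44 to 101. The CD45.1+ sort gave 339 to 947 cells per mouse. The labels and the sex-linked transcripts disagreed: the study's notes describe the wild-type donors as male and the *Dock8* cpm/cpm donors as female, whereas wild-type-labelled CD45.2+ cells held 1203 to 1429 counts per 1000000 UMIs (CPM) of *Xist* and cpm-labelled CD45.2+ cells 281 to 406, with 152 to 189 CPM of Y-linked transcripts. Of the cpm-labelled CD45.2+ cells, 34.7% to 36.8% held both *Xist* and a Y-linked transcript, against 3.26% to 3.77% of the wild-type-labelled ones. The groups are therefore called by their labels throughout. *Dock8* mRNA, which the allele need not remove, was at 99.6, 115 and 97.0 CPM in the wild-type-labelled and 103, 99.6 and 69.3 CPM in the cpm-labelled CD45.2+ cells and does not check them.

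In germinal centers (GCs) B cells cycle between a dark zone (DZ), where they divide and mutate their antibody genes, and a light zone (LZ), where they are selected. AID turns cytosine into uracil in the transcribed antibody genes. *Ung* encodes the glycosylase that removes this uracil, and *Apex1* the endonuclease that cuts the abasic site left behind. *Msh6* encodes a subunit of the complex that recognizes the mismatch, *Exo1* the exonuclease that opens a gap beside it, and *Polh* the error-prone polymerase eta that fills the gap. *Neil1* encodes a glycosylase for oxidized bases, *Nuggc* a nuclear GTPase of GC B cells, and *Top1* the topoisomerase that relaxes supercoils during transcription.

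On GRCm38 *Ung* lies at chr5:114130386-114139323 on the plus strand, *Msh6* at chr17:87975062-87990892 plus, *Polh* at chr17:46171355-46202645 minus, *Exo1* at chr1:175880581-175913489 plus, *Apex1* at chr14:50924968-50927139 plus, *Neil1* at chr9:57142800-57148305 minus, *Nuggc* at chr14:65598546-65648531 plus and *Top1* at chr2:160645888-160722764 plus. All 8 are protein coding. The 3′ end of *Msh6* overlaps that of *Fbxo11*, and *Apex1* overlaps *Pip4p1*, both on the opposite strand, and an snRNA gene, *Gm23805*, lies within *Exo1* on its strand. RefSeq promoter windows (GRCm38.p6, 250 bases before to 50 after the start) were matched for *Ung*, *Msh6*, *Polh*, *Apex1*, *Neil1* and *Top1*. Stretches of 4 of them, upstream of the genes' own exons, are shown because *Ung* and *Msh6* were highest in S-phase cells and *Polh* and *Neil1* in G2M cells. Capitals mark GGGCGG (Sp1), CCAAT (NF-Y) and CAGGTG (E-box) on either strand, and runs of capitals are matches that overlap.
Ung, chr5:114130216-114130385, plus strand: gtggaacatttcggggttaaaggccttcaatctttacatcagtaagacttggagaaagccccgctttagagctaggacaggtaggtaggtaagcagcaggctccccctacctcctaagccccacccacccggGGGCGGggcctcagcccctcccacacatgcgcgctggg
Msh6, chr17:87974880-87975049, plus strand: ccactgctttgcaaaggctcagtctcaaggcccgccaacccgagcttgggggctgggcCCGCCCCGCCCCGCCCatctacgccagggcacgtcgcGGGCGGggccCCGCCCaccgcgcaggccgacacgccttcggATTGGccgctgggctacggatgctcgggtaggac
Polh, chr17:46202646-46202781, minus strand: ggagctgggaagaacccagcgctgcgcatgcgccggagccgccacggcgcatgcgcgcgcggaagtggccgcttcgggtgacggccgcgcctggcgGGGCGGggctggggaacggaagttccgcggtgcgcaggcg
Neil1, chr9:57148306-57148475, minus strand: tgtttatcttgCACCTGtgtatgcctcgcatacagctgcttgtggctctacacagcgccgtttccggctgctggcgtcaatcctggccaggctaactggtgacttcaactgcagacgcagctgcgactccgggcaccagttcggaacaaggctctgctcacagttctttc

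Of 6 letter strings searched on both strands of each window, GGGCGG was present in *Ung*, *Msh6*, *Polh*, *Apex1* and *Top1*, and in 35.7% of all 32851 promoter windows. CCAAT was in *Msh6* and *Apex1* (37.4% of all), and CAGGTG in *Ung* and *Neil1* (20.2%). The E2F-type string TTTCCCGC was in *Msh6* alone, 16 bases after the start, against 1.07% of all windows. No window of the 6 held the other E2F-type string TTTGGCGC (0.514%) or the CHR string TTTGAA (17.9%). These letters are a description of the windows and were not tested for binding.

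The cells formed 17 clusters, named by the study's marker lists after the 8 genes and the repair lists below had been left out of the genes used for clustering. DZ stands for 3 DZ-like clusters, led by *Mcm* genes (DZ1), histone genes (DZ2) or mitotic genes (DZ3), and LZ for 2 LZ-like clusters, LZ1 led by *Il4i1* and *Mir155hg* and LZ2 by *Egr1* and *Cd83*. LZ2 shared 14 of the study's LZ2 and 12 of its LZ4 markers. As B cells of the GC, the LZ and DZ cells of all mice described held *Cd79a* at 1436 to 2723 CPM, *Fas* at 67.4 to 159 CPM and *Bcl6* at 66.5 to 149 CPM, while the T cell genes *Cd3d*, *Cd3e* and *Trac* were at 4.67 CPM or below. Of plasma cell genes *Prdm1* and *Sdc1* were at 9.63 CPM or below, and *Jchain* was at 368 to 1267 CPM and *Mzb1* at 703 to 1006 CPM. These ranges leave out the few cpm-labelled CD45.2+ cells. Among those, *Fas* and *Bcl6* were as low as 44.5 CPM and *Prdm1* reached 22.3 CPM, in the 7 LZ cells of mouse 2. *Cd3e* reached 8.56 CPM in the 14 DZ cells of mouse 1, and *Cd79a* stayed within its range. Zones and states are made from the same cells, so their levels are described without a test, with values per mouse for the 3 wild-type-labelled mice in the CD45.2+ sort and all 6 mice in the CD45.1+ sort. Levels are CPM of unique molecules (UMIs) summed over the cells of a mouse, and are compared between cells, not between genes.

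**Figure D1:**
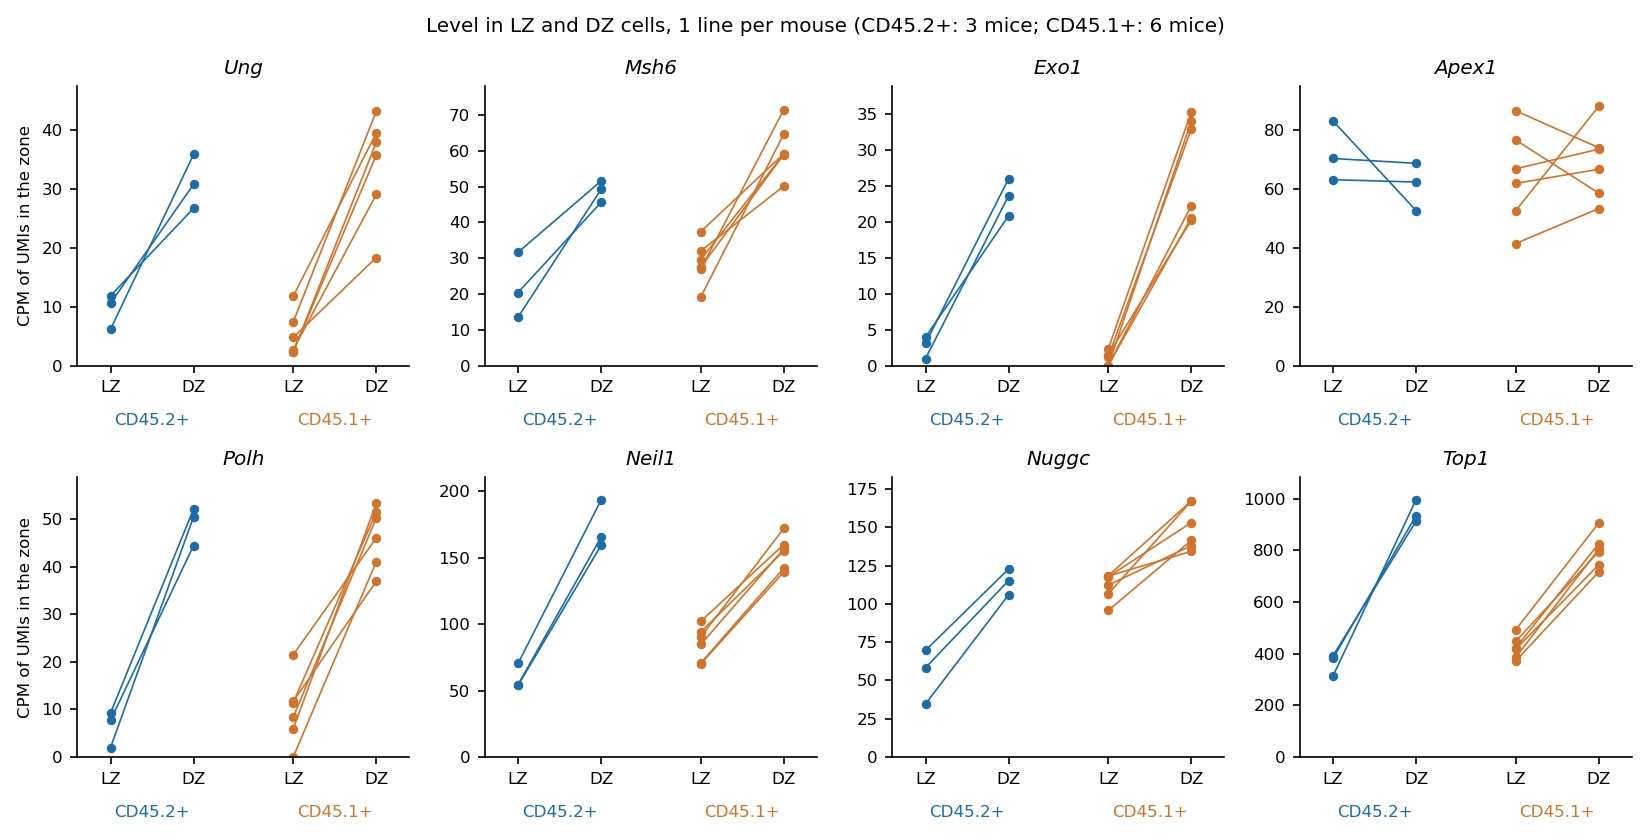
Level of each gene in LZ and DZ cells in CPM of UMIs, with 1 line per mouse, for the CD45.2+ sort (3 wild-type-labelled mice, blue) and the CD45.1+ sort (6 mice, orange). In both sorts 7 genes lie higher in the DZ than in the LZ in every mouse, and *Apex1* does not.

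DZ cells held more mRNA of 7 of the 8 genes than LZ cells in every mouse and both sorts, without overlap between the zones, as the plot of levels in LZ and DZ cells shows. Of all genes with enough counts, 30.3% had DZ above LZ without overlap in the CD45.2+ and 15.4% in the CD45.1+ sort, and 23.4% and 7.45% had DZ below LZ. *Apex1* was the exception, and *Dock8* was below LZ levels in the DZ without overlap in both sorts. The median difference over all genes was 0.03 log2 in each sort. Median UMIs per cell were higher in DZ than in LZ cells in every mouse, and the summed level of 20 T cell markers was 89.3 to 142 CPM in DZ and 184 to 289 CPM in LZ cells. That of 37 plasma cell markers, antibody and secretory pathway genes that B cells also hold among them, was 23224 to 30821 CPM in DZ and 26886 to 33109 CPM in LZ cells. Their part in the zone differences was not tested.

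*Exo1* and *Polh*, the exonuclease and the gap-filling polymerase, had the largest differences of the 8 in the CD45.2+ sort. In the CD45.1+ sort *Exo1* and *Ung* had the largest, with *Polh* close to *Ung*. In the CD45.2+ sort *Exo1* was at 23.6, 26.0 and 20.8 CPM in the DZ of the 3 mice and at 0.963, 3.08 and 3.95 CPM in their LZ, a mean difference of 2.84 ± 0.76 (SD, n = 3) on the log2(CPM + 1) scale. Its LZ values rest on 1, 8 and 4 UMIs, and in the CD45.1+ sort on 0 to 2 UMIs per mouse, against 14 to 34 UMIs in the DZ. CD45.1+ cells differed by 4.10 ± 0.75 (SD, n = 6) on that scale, a value that depends on the pseudocount because 3 of the 6 mice had no *Exo1* UMI in the LZ. *Polh* was at 44.5, 52.1 and 50.5 CPM in the CD45.2+ DZ and at 7.71, 9.24 and 1.98 CPM in the LZ, a difference of 2.96 ± 1.0. In the CD45.1+ sort *Polh* ranged from 37.0 to 53.3 CPM in the DZ and from 0 to 21.5 CPM in the LZ, and the difference was 2.59 ± 1.53. Every DZ value of these genes lay above every LZ value of its sort.

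*Ung* was at 30.8, 35.9 and 26.7 CPM in the CD45.2+ DZ against 10.6, 6.16 and 11.9 CPM in the LZ, a difference of 1.64 ± 0.65 log2. Its LZ values rest on few UMIs in both sorts. In the CD45.1+ sort its lowest DZ value, 18.4 CPM, was above its highest LZ value, 11.8 CPM, and the difference was 2.64 ± 0.84. *Apex1*, which acts on the product of *Ung*, had no such difference. It was at 68.7, 62.3 and 52.6 CPM in the DZ and 70.3, 63.1 and 83.0 CPM in the LZ of the CD45.2+ sort, −0.23 ± 0.36 log2. In the CD45.1+ sort its difference was 0.12 ± 0.40, from −0.38 to 0.73 in single mice, so that neither sign held in all mice.

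*Msh6* differed less than *Exo1*, its partner in mismatch repair. It was at 49.2, 45.6 and 51.6 CPM in the CD45.2+ DZ and 13.5, 20.4 and 31.6 CPM in the LZ (1.2 ± 0.56), and CD45.1+ cells differed by 1.07 ± 0.42. *Neil1* was at 159, 193 and 166 CPM in the DZ and 53.9, 70.4 and 54.4 CPM in the LZ of the CD45.2+ sort (1.53 ± 0.07), with a smaller difference of 0.86 ± 0.15 in the CD45.1+ sort. *Top1* was at 997, 935 and 914 CPM in the DZ and 314, 383 and 393 CPM in the LZ (1.39 ± 0.24), and by 0.92 ± 0.09 higher in the CD45.1+ DZ. *Nuggc* was at 106, 123 and 115 CPM in the DZ and 34.7, 69.7 and 58.3 CPM in the LZ (1.12 ± 0.41). Its CD45.1+ difference, 0.43 ± 0.17, was the smallest of the 7 genes. With the LZ2 cells in place of all LZ cells the CD45.2+ difference was 0.38 in place of 1.12 for *Nuggc* and 0.88 in place of 1.53 for *Neil1*.

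**Figure D2:**
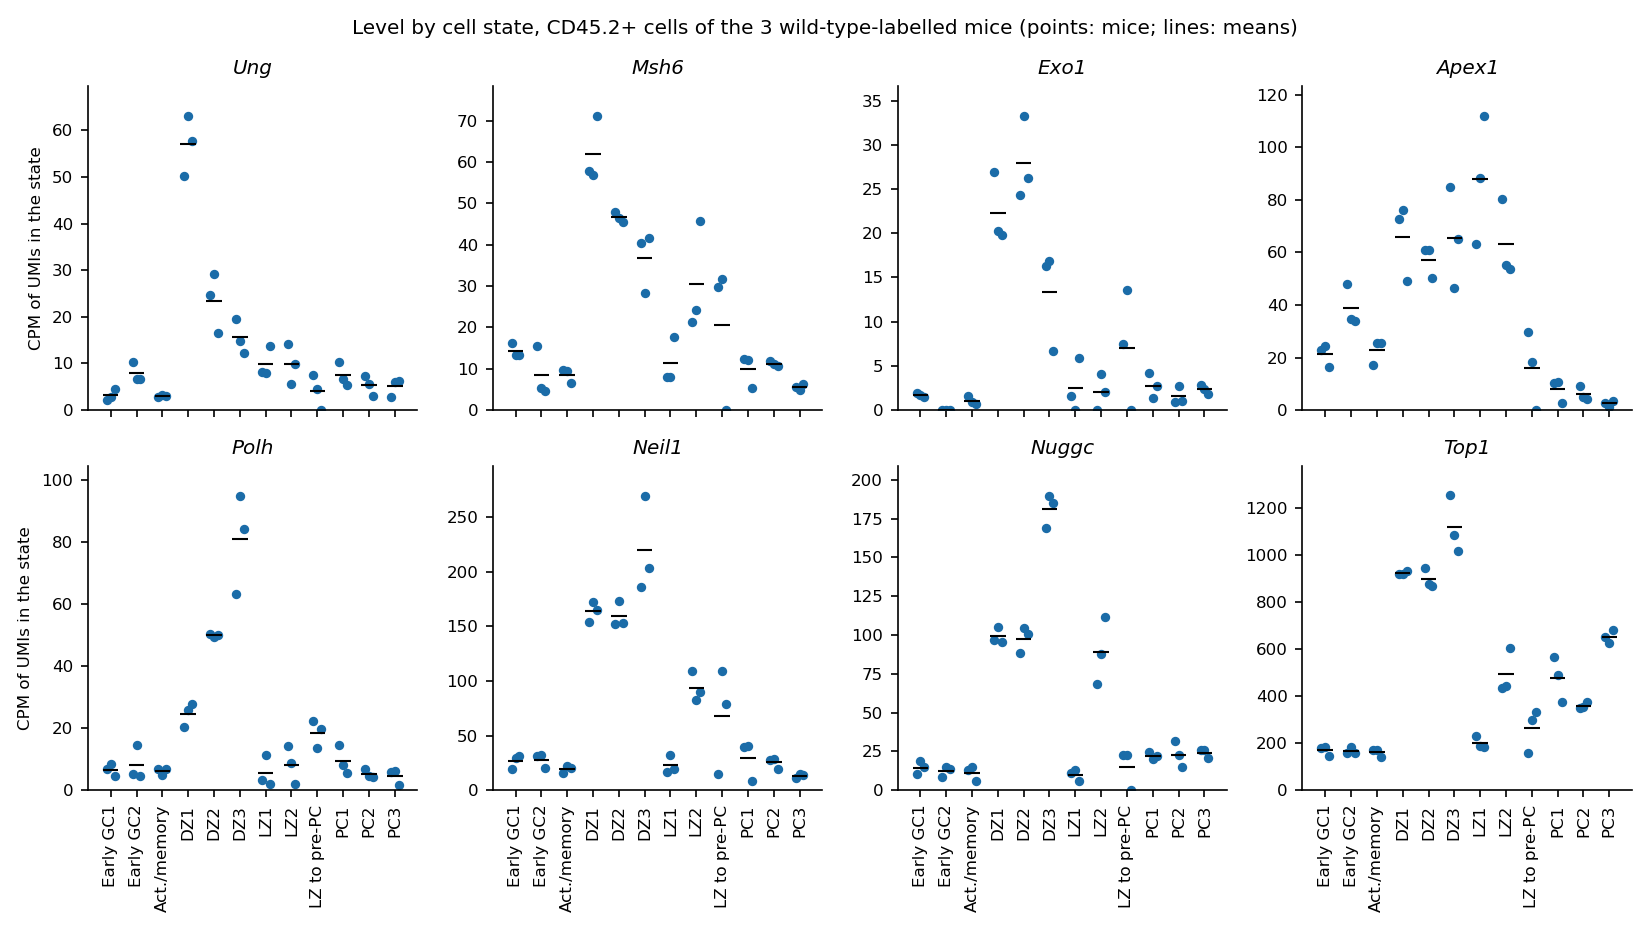
Level of each gene in CPM of UMIs in 12 cell states, CD45.2+ cells of the 3 wild-type-labelled mice (points are mice, lines their mean, PC is plasma cell). *Ung* is highest in DZ1, *Polh*, *Neil1*, *Nuggc* and *Top1* are highest in DZ3, and *Apex1* is as high in LZ1 as in the DZ states.

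Within the DZ the genes did not share a peak. *Ung* was highest in DZ1, at 57.0 ± 6.4 CPM (SD, n = 3), with 23.5 ± 6.5 CPM in DZ2 and 15.6 ± 3.7 CPM in DZ3, and DZ1 overlapped with no other state. *Msh6* followed the same order, 61.9 ± 8.0, 46.6 ± 1.3 and 36.8 ± 7.3 CPM. *Exo1* was at 22.3 ± 4.0 CPM in DZ1 and 28 ± 4.7 CPM in DZ2, which overlapped, and at 13.3 ± 5.7 CPM in DZ3. *Polh* ran the other way, from 24.5 ± 3.8 CPM in DZ1 through 49.9 ± 0.59 CPM in DZ2 to 80.7 ± 16 CPM in DZ3, without overlap. The plot of levels in 12 cell states shows these opposite orders within the DZ.

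*Nuggc* was at 181 ± 11 CPM in DZ3 and did not differ beyond the spread of the mice between DZ1 (99.1 ± 5.2 CPM), DZ2 (97.7 ± 8.4 CPM) and LZ2 (89.3 ± 22 CPM). It was at 10.0 ± 3.7 CPM in LZ1, so the LZ states stood further apart in *Nuggc* than LZ2 stood from DZ1. *Neil1* had the same split, 93.7 ± 14 CPM in LZ2 and 22.7 ± 8.4 CPM in LZ1, under 220 ± 44 CPM in DZ3. *Top1* was at 493 ± 96 CPM in LZ2 and 202 ± 26 CPM in LZ1, and at 897 to 1120 CPM on average in the DZ states. *Apex1* was highest in LZ1, at 87.9 ± 24 CPM, where its values (63.4, 88.5 and 112 CPM) overlapped with those of LZ2 and of each DZ state.

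Outside the GC zones most of the genes were low in the states shown, which leave out a cycling plasma cell-like cluster given below. In the EarlyGC1-, EarlyGC2- and Activated/Memory-like states of the CD45.2+ sort *Ung* averaged 3.06 to 7.91 CPM, *Polh* 6.14 to 8.10 CPM, *Nuggc* 11.3 to 14.6 CPM and *Exo1* 0 to 1.68 CPM. In the plasma cell-like states *Apex1* averaged 2.56 to 7.96 CPM, below its 21.3 to 38.8 CPM in the early and activated states. *Top1* was at 653 ± 29 CPM in PC3, above all 3 mice of LZ1 and of the early states (141 to 232 CPM). The cluster named LZ to pre-PC/Memory had a median of 1751 UMIs per cell, and its levels rest on few counts. The cycling plasma cell-like cluster had at least 20 cells in 1 mouse of the CD45.1+ sort (57 cells). *Exo1* was at 30.2 CPM in that cluster, against a mean of 27.5 CPM in the CD45.1+ DZ. *Msh6* was at 16.7 CPM, *Polh* at 15.6 CPM, *Neil1* at 12.5 CPM and *Ung* at 5.21 CPM. In the CD45.1+ sort *Ung* was at 61.4 ± 21 CPM in DZ1 and 16.5 ± 11 CPM in DZ2 (n = 6), and *Polh* at 18.3 ± 7.1 and 65.3 ± 8.1 CPM, the same order. Activated/Memory-like cells of that sort (6 mice) averaged 0.470 CPM of *Ung*, 0.648 CPM of *Nuggc*, 0 CPM of *Exo1* and 7.04 CPM of *Polh*. *Nuggc* was at 0 CPM in its EarlyGC1-like cells (4 mice). Why *Nuggc* and *Ung* were higher in these states of the CD45.2+ sort was not tested.

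**Figure D3:**
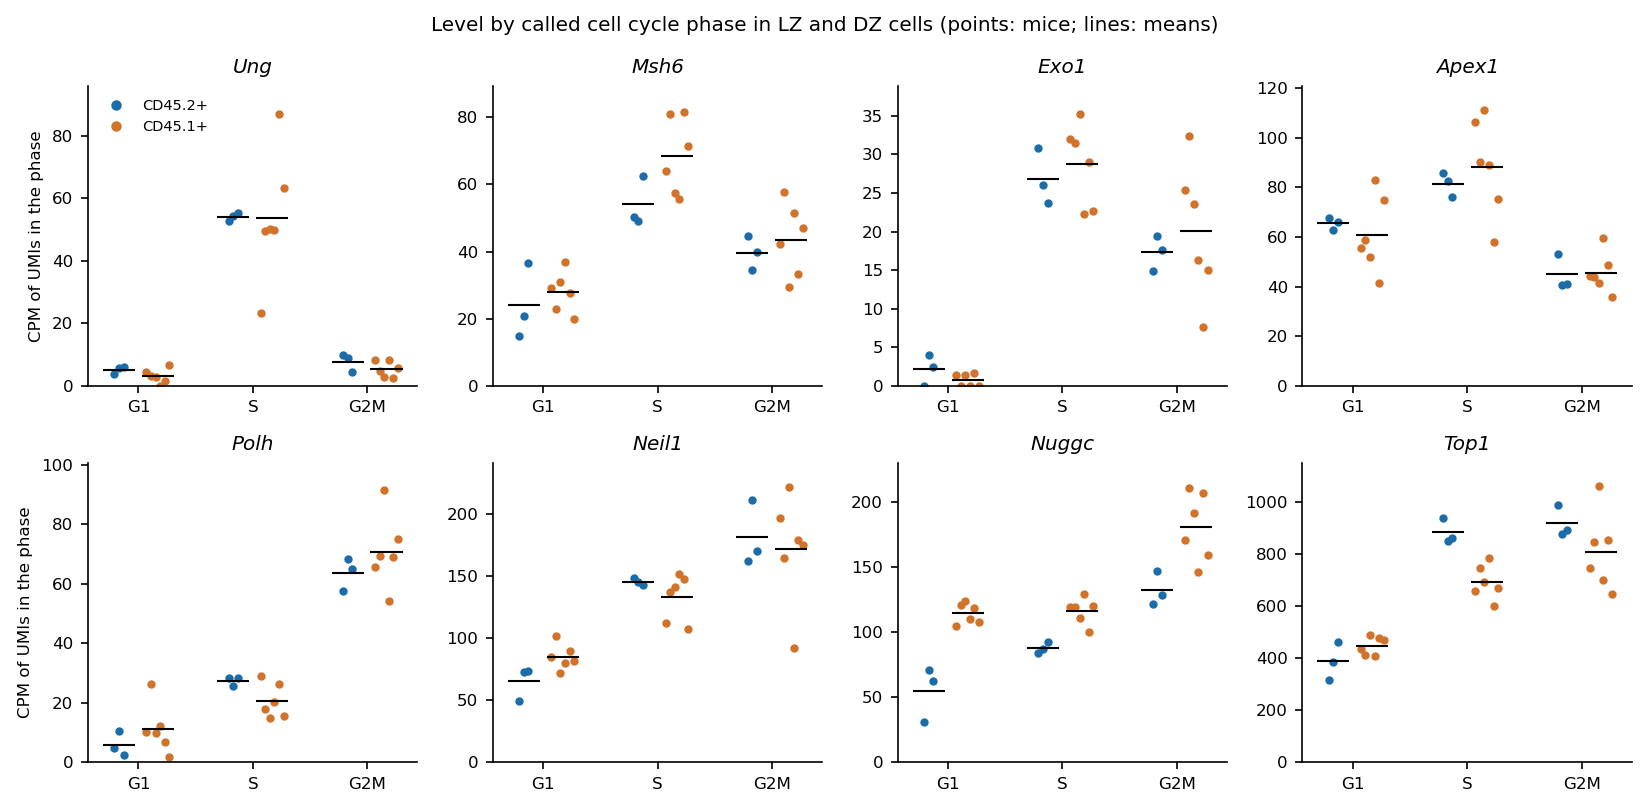
Level of each gene in CPM of UMIs in LZ and DZ cells called G1, S or G2M, in the CD45.2+ sort (3 wild-type-labelled mice, blue) and the CD45.1+ sort (6 mice, orange), with points for mice and lines for means. *Ung*, *Msh6*, *Exo1* and *Apex1* have their highest mean in S, and *Polh*, *Neil1* and *Nuggc* in G2M.

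Cell cycle phases were called in cells thinned to 2000 UMIs, from 37 S and 53 G2M genes that include none of the 8 genes or of the repair lists. *Ung*, *Msh6*, *Exo1* and *Apex1* were highest in S in every CD45.2+ mouse without overlap, and *Polh*, *Neil1* and *Nuggc* in G2M. Over all genes 14.7% were highest in G1, 7.21% in S and 9.53% in G2M in this way. None of the 8 was highest in G1. The phases and the zones share most of their cells: 1.90% of wild-type-labelled CD45.2+ DZ cells were called G1, against 75.4% of LZ cells.

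*Ung* was at 52.8, 54.2 and 55.3 CPM in S and between 4.42 and 9.76 CPM in G2M, close to its 3.69 to 6.12 CPM in G1. *Polh* was at 57.4, 64.8 and 68.4 CPM in G2M, 25.6 to 28.4 CPM in S and 2.45 to 10.6 CPM in G1. The uracil glycosylase and the polymerase were thus highest in different called phases. *Exo1* averaged 26.8 ± 3.6 CPM in S and 17.3 ± 2.3 CPM in G2M, and *Msh6* 54.1 ± 7.4 and 39.6 ± 5.0 CPM. *Apex1* averaged 81.5 ± 4.8 CPM in S and had its lowest mean, 44.9 ± 7.1 CPM, in G2M, below G1 (65.6 ± 2.5 CPM). *Neil1* averaged 181 ± 26 CPM in G2M and 145 ± 3.0 CPM in S, and *Nuggc* 132 ± 13 and 87.9 ± 4.0 CPM. *Top1* overlapped between G2M (922 ± 61 CPM) and S (885 ± 48 CPM), and was at 388 ± 72 CPM in G1.

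The 6 mice of the CD45.1+ sort had the same phase with the highest mean for each gene. *Ung* averaged 53.8 ± 21 CPM in S and 5.39 ± 2.5 CPM in G2M, and *Polh* 20.7 ± 5.9 and 70.8 ± 12 CPM, both without overlap. *Nuggc* was at 181 ± 26 CPM in G2M, with like means in S (117 ± 10 CPM) and G1 (115 ± 7.7 CPM). *Apex1*, *Exo1*, *Msh6*, *Neil1* and *Top1* overlapped between S and G2M over the mice. The plot of levels by called cell cycle phase sets the sorts side by side.

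Cells called S were also compared between the zones. Among them *Ung* was at 54.8, 58.0 and 64.9 CPM in the CD45.2+ DZ and 9.83, 31.1 and 34.1 CPM in the LZ. *Exo1* was at 26.0 to 33.6 CPM in S-called DZ cells and 0 to 4.44 CPM in S-called LZ cells, and *Top1* at 918 to 1000 CPM and 358 to 395 CPM. *Polh* was at 30.6 ± 0.52 CPM and 7.05 ± 5.0 CPM. In this sort *Apex1* was again apart, with overlapping values of 70.2 to 87.2 CPM in S-called DZ and 62.9 to 129 CPM in S-called LZ cells. The S-called LZ cells numbered 154 over the 3 mice. Their values rest on 5 to 8 UMIs per mouse for *Ung*, 0 or 1 for *Exo1* and 1 to 3 for *Polh*. In the CD45.1+ sort (144 S-called LZ cells, 5 mice) *Apex1* was not alone. *Ung* (27.0 to 102 CPM in DZ, 0 to 42.0 CPM in LZ), *Neil1* (119 to 169 and 39.6 to 168 CPM) and *Nuggc* (106 to 132 and 63.0 to 175 CPM) overlapped as well. *Msh6*, *Exo1*, *Polh* and *Top1* did not overlap between the zones there.

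Single cells held few UMIs of these genes. The shares below pool the cells of all 6 mice of the CD45.2+ sort, wild-type- and cpm-labelled, 1259 DZ and 815 LZ cells after thinning. After thinning to 2000 UMIs, 28.6% of CD45.2+ DZ cells held a *Neil1* UMI (exact 95% interval 26.1% to 31.2%), 12.1% of LZ cells (9.98% to 14.6%), 5.49% of plasma cells and 4 of 54 T cells (7.41%). For *Ung* the shares were 5.88% in the DZ, 1.35% in the LZ, 1.17% in plasma cells and 0 of 54 T cells, which allows up to 5.56%. *Exo1* was found in 4.77% of DZ and 0.245% of LZ cells, and *Top1* in 77.3%, 46.6%, 52.8% of plasma cells and 40.7% of T cells. *Apex1* was found in 10.2% of DZ (8.63% to 12.1%) and 11.8% of LZ cells (9.65% to 14.2%), with overlapping intervals. The LZ shares of *Ung* and *Polh* (1.60%) were near those of plasma cells (1.24% for *Polh*), and no order was read from them. Without thinning the shares were higher, 71.3% of DZ and 25.5% of LZ cells for *Neil1*, at median depths of 10681 UMIs in the DZ, 5353 in the LZ, 8177 in plasma cells and 3337 in T cells. All intervals cover counting error only.

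The other genes of the pathways were compared between the zones in the same way. Of 16 mismatch repair genes 14 were above LZ levels in the CD45.2+ DZ without overlap and 1 below, and 12 and 0 in the CD45.1+ sort, with median differences of 1.2 and 1.11 log2. The replication factors on that list, *Pcna* (344 ± 9.0 CPM in DZ, 79.2 ± 7.0 CPM in LZ), *Lig1* (301 ± 11 and 33.4 ± 3.6 CPM) and *Rfc1* (261 ± 8.5 and 114 ± 17 CPM), had its highest DZ levels. Of 21 base excision repair genes 12 were above and 2 below in the CD45.2+ sort (8 and 1 of 20 in the CD45.1+ sort), with the poly(ADP-ribose) polymerase *Parp1* at 278 ± 12 and 192 ± 18 CPM and the abasic site sensor *Hmces* at 202 ± 16 and 52.1 ± 9.2 CPM. Of 13 translesion synthesis genes 6 were above and 2 below (5 and 0), with *Usp1* at 151 ± 1.2 and 48.1 ± 3.9 CPM, and *Rev1* and *Rev3l* closer between zones, at 58.0 ± 3.2 and 41.5 ± 15 CPM and 63.9 ± 3.5 and 42.4 ± 15 CPM. These shares read against the 30.3% and 15.4% of all genes above.

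Of 22 genes linked to AID targeting, transcription and topology, 13 were above and 0 below in the CD45.2+ DZ (10 and 0), with the topoisomerase II *Top2a* at 742 ± 39 and 57.7 ± 4.3 CPM and the elongation factor *Supt4a* at 319 ± 11 and 271 ± 10 CPM. Of 18 genes of end joining in switch recombination, 10 were above and 2 below (6 and 0 of 19), with *H2afx* at 468 ± 22 and 66.2 ± 9.0 CPM, *Rif1* at 121 ± 4.1 and 46.2 ± 6.7 CPM and *Rad50* at 95 ± 5.7 and 54.8 ± 3.2 CPM. The lists include the 8 genes. Their median differences were 0.29 and 0.32 log2 for targeting and 0.49 and 0.84 log2 for end joining in the CD45.2+ and CD45.1+ sorts.

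Across the 12 states of the CD45.2+ cells, the genes whose levels ran most like each of the 8 were sought among 7488 genes, as a description over 12 points that share cells, library and depth. For *Ung* they were *Dtl* (Pearson r = 0.95), *Npat* (0.94) and *Cdc6* (0.93), for *Exo1* they were *Clspn* (0.99), *Rrm2* and *Siva1* (0.99 each), and for *Msh6* they were *Dnmt1*, *Hbb-bh1* and *Cenps* (0.97 each). For *Polh* they were *Cenpe* (0.99), *Pimreg* and *Kif20a* (0.98 each), genes of the mitotic cell. *Neil1* ran with *Ppp4r2* (0.99), *Dck* and *Fam216a* (0.98 each), *Nuggc* with *Dynlt3* (0.97), *Med30* and *Rassf6* (0.96 each), and *Top1* with *Cd24a* (0.97), *Txn1* and *Arpc1a* (0.96 each). For *Apex1* they were *Emc6* (0.98), *Timm10* (0.97) and *Wdr36* (0.96). Among the 8 themselves *Msh6* and *Neil1* were closest (0.95), and *Apex1* and *Top1* furthest apart (0.18).

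**Figure D4:**
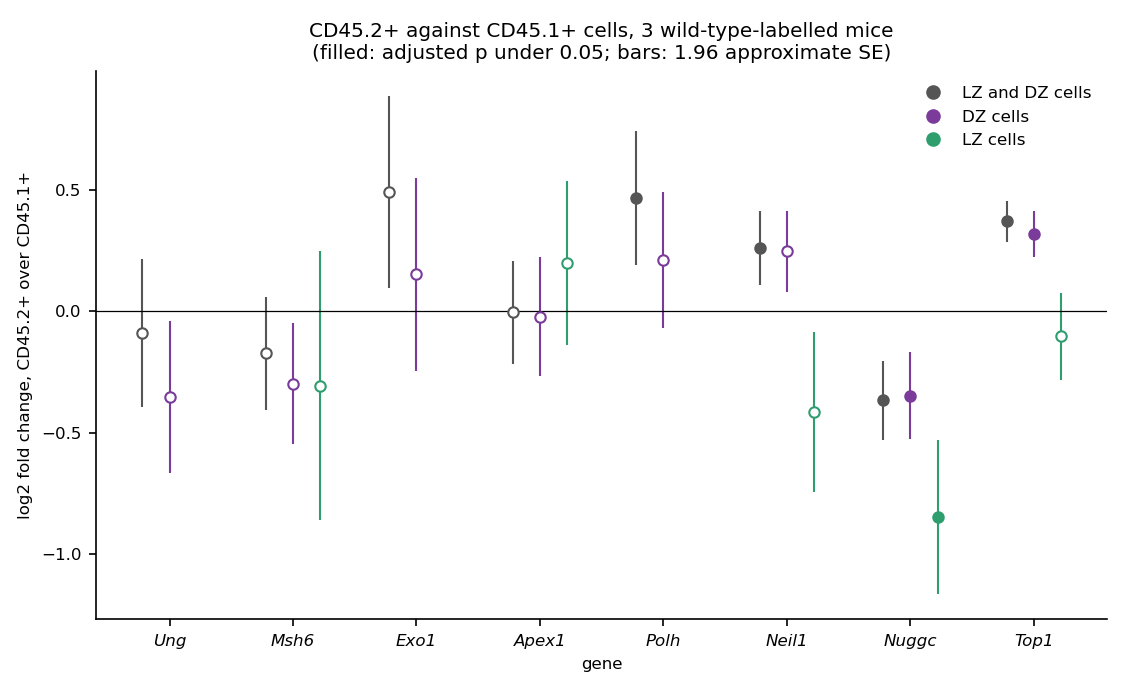
Log2 fold change of CD45.2+ over CD45.1+ cells in the 3 wild-type-labelled mice, for LZ and DZ cells together, DZ cells and LZ cells, with bars for 95% intervals from approximate standard errors and filled points at an adjusted p under 0.05. *Nuggc* is lower in the CD45.2+ sort in all 3 sets, and *Top1* is higher in the LZ and DZ together and in the DZ.

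The comparison of BCL2.Tg CD45.2+ with non-transgenic CD45.1+ cells of the same wild-type-labelled mice asked whether levels differed between cells that are both *Dock8* wt/wt. In LZ and DZ cells together 4 of the 8 genes passed the test, against 14.7% of the 9372 genes tested. *Top1* was at 876, 731 and 822 CPM in CD45.2+ and 660, 624 and 600 CPM in CD45.1+ cells, higher by 0.37 log2 (approximate SE 0.04, adjusted p = 3.6e-10). *Polh* was at 38.0, 36.3 and 41.9 CPM against 28.3, 29.9 and 27.1 CPM (0.47, SE 0.14, adjusted p = 0.0150). *Neil1* was at 141, 148 and 146 CPM against 115, 131 and 118 CPM (0.26, SE 0.08, adjusted p = 0.0138). *Nuggc* went the other way, at 93.3, 103 and 105 CPM against 129, 137 and 126 CPM (−0.37, SE 0.08, adjusted p = 7.41e-04). The sorts did not overlap in any of these 4 genes. These are the values that the test used, and the share of all genes without overlap was not counted.

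Zones were not equally mixed in the sorts. DZ cells made up 47.8% to 74.1% of the LZ and DZ cells in the CD45.2+ and 31.3% to 54.8% in the CD45.1+ sort of these mice, and DZ1 cells 33.2% to 34.6% and 44.0% to 63.2% of the DZ. Median UMIs per DZ cell were 9254 to 12294 and 6152 to 7384. Within the DZ alone *Top1* (0.32, SE 0.05, adjusted p = 1.65e-05) and *Nuggc* (−0.35, SE 0.09, adjusted p = 0.0149) still passed, 2 of 8 genes against 6.15% of all, and *Polh* (0.21, SE 0.14, adjusted p = 0.491) and *Neil1* (0.25, SE 0.08, adjusted p = 0.0805) did not. Split further, *Top1* passed in DZ2 cells (0.55, adjusted p = 6.35e-06) and not in DZ1 cells (0.15, adjusted p = 0.294), *Nuggc* in DZ1 (−0.50, adjusted p = 0.0227) and not in DZ2 cells (−0.26, adjusted p = 0.541), and *Neil1* in DZ2 cells (0.63, adjusted p = 0.0111), against 3.75% of all genes in DZ1 and 3.45% in DZ2 cells. Those sets were chosen after the values were seen, and the differences between them were not tested.

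In the LZ 5 of the 8 genes had enough counts for a test, and *Nuggc* alone passed, against 9.35% of all genes. It was at 34.7, 69.7 and 58.3 CPM in CD45.2+ and 112, 107 and 95.7 CPM in CD45.1+ LZ cells, a difference of −0.85 (SE 0.16, adjusted p = 1.05e-05). LZ1 cells, which are low in *Nuggc*, numbered 260 in the CD45.2+ sort of these mice, and in the CD45.1+ sort 1 mouse held more than 20 of them. In LZ2 cells alone the difference was −0.40 (adjusted p = 0.238) and did not pass, where 4.12% of all genes did. *Neil1* was lower in the CD45.2+ LZ by 0.41 on the log2 scale without passing (adjusted p = 0.108), and *Top1* (−0.10, 95% interval −0.28 to 0.08), *Apex1* (0.20, −0.14 to 0.54) and *Msh6* (−0.31, −0.86 to 0.25) did not pass.

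Leaving out wild-type mouse 1 or 3 took *Neil1* and *Polh* below the threshold in LZ and DZ cells together, leaving out mouse 1 or 2 did so for *Nuggc* in the DZ (adjusted p = 0.0686 and 0.0897), and leaving out mouse 1 for *Nuggc* in the LZ (−0.62, adjusted p = 0.0613). *Top1* and *Nuggc* in LZ and DZ cells together, and *Top1* in the DZ, passed without each of the 3 mice. In the pooled set *Ung* (−0.09, 95% interval −0.39 to 0.22), *Msh6* (−0.17, −0.41 to 0.06), *Exo1* (0.49, 0.09 to 0.89, adjusted p = 0.0943) and *Apex1* (0.00, −0.21 to 0.21) did not pass. Intervals here are unadjusted and rest on approximate standard errors.

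Among the other genes of the lists, the DNA ligase *Lig1* was higher in CD45.2+ cells in all 3 sets, by 0.69 in LZ and DZ cells together, 0.39 in the DZ and 1.12 in the LZ, as was *Top2a* (0.49, 0.19 and 0.86). The translesion scaffold *Rev1* was lower in all 3 (−0.45, −0.46 and −0.59). In LZ and DZ cells together *Xrcc6* (0.52), *Rpa3* (0.30), *Pcna* (0.27) and *Ssrp1* (0.26) were also higher and *Exosc3* (−0.28), *Supt4a* (−0.18) and *Parp1* (−0.17) lower. By list, members included, 1 gene was higher and 2 lower of 20 for base excision repair, 2 and 0 of 16 for mismatch repair, 1 and 1 of 13 for translesion synthesis, 4 and 3 of 22 for targeting and 1 and 0 of 19 for end joining, against 14.7% of all genes tested in either direction. In the DZ *Exosc3* (−0.37) and *Rfc1* (−0.23) were lower. In the LZ the glycosylase *Mbd4* (−0.62), *Hmces* (−0.54), *Supt16* (−0.50) and *Rfc1* (−0.46) were lower. All these changes passed an adjusted p under 0.05.

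**Figure D5:**
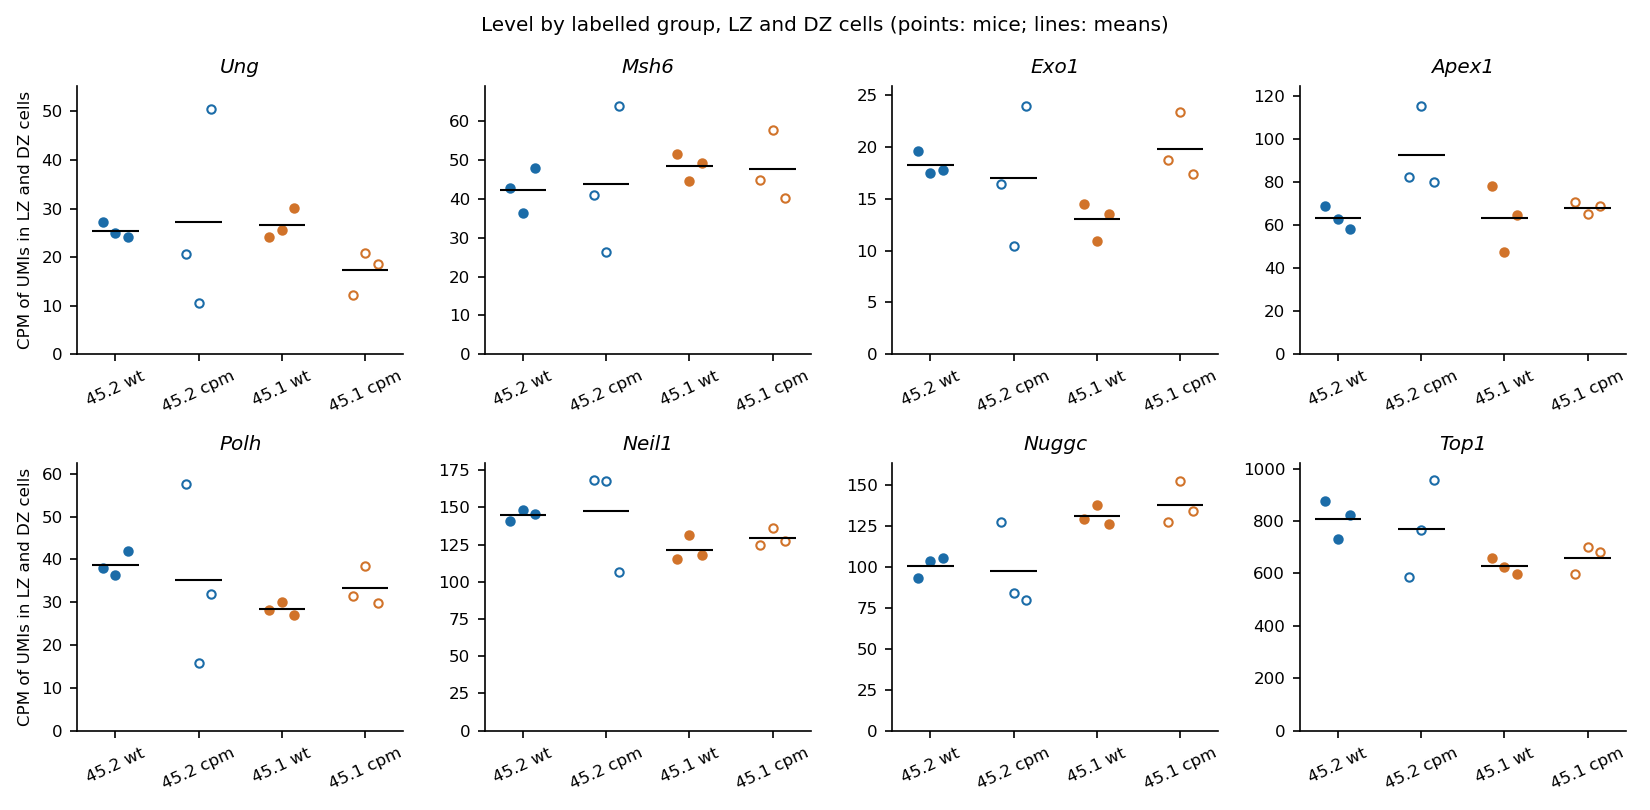
Level of each gene in CPM of UMIs in LZ and DZ cells by sort and labelled group, 3 mice each (points, with lines for means). The cpm-labelled CD45.2+ mice, with 19 to 42 cells each, spread more widely than the other groups, and all groups overlap with their counterpart except where the text gives values.

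Whether the levels depend on *Dock8* was asked in the CD45.2+ LZ and DZ cells by labelled group. The groups also differ in donor sex by the study's notes and in sex-linked transcripts, so label and sex cannot be told apart. None of the 8 genes passed the test, against 0.0109% of the 9150 genes tested, which is 1 gene, *Gm43305* (580 genes had an unadjusted p under 0.05, and DESeq2 called 2). The cpm-labelled mice gave 35, 19 and 42 LZ and DZ cells, of which 40%, 63.2% and 52.4% were DZ cells. In the wild-type-labelled mice 70.2%, 47.8% and 74.1% were, and the part of this zone mixture was not tested. *Ung* values of the cpm-labelled mice, 20.5, 10.5 and 50.6 CPM, lay on both sides of the wild-type-labelled values of 24.1 to 27.2 CPM. The difference in *Ung* was 0.25 with a 95% interval from −0.42 to 0.91 (adjusted p = 0.948). *Apex1* was at 82.2, 115 and 79.9 CPM in cpm-labelled and 69.0, 62.6 and 58.0 CPM in wild-type-labelled mice, without overlap. The share of all genes that separate in this way was not counted, so no result is read from it. The difference in *Apex1* of 0.42 (0.03 to 0.81) did not pass (adjusted p = 0.783). For the other genes the intervals were −0.38 to 0.12 for *Top1*, −0.44 to 0.21 for *Neil1*, −0.52 to 0.21 for *Nuggc*, −0.77 to 0.39 for *Polh*, −0.44 to 0.64 for *Msh6* and −0.79 to 0.67 for *Exo1*. Differences within these intervals were not detectable at the depth of this group.

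The cpm-labelled cells were also restricted by their sex-linked transcripts, in sets chosen after the data were seen. Without the cells that held both *Xist* and a Y-linked transcript, again none passed. In the other set CD45.2+ cells were kept if they held *Xist* alone under the wild-type label or Y-linked transcripts alone under the cpm label. Neither kind prevailed among all cpm-labelled CD45.2+ cells, of which 21.1%, 20.5% and 23.8% held Y-linked transcripts alone. *Xist* alone was held by 22.8%, 34.1% and 22.8%. This left 7, 4 and 12 cpm-labelled LZ and DZ cells, of which 14.3%, 50% and 33.3% were DZ cells. In the wild-type-labelled mice DZ cells made up 47.4% to 73.8%. In that set *Top1* (−1.34, adjusted p = 4.86e-06) and *Neil1* (−1.44, adjusted p = 0.0243) were lower in cpm-labelled cells, both genes that are lower in the LZ. They are 2 of 8 genes, against 3.64% of all genes tested in that set, where 320 genes passed in place of 1. The part of the zone mixture in these values was not tested.

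CD45.1+ cells are *Dock8* wt/wt in both groups and differ only in the CD45.2+ cells they shared a mouse with. No gene of the 8 passed in this comparison (0% of 7917 genes by edgeR, with 327 at an unadjusted p under 0.05, and 0 by DESeq2). *Exo1* was at 18.7, 23.4 and 17.4 CPM beside cpm-labelled and 14.5, 11 and 13.5 CPM beside wild-type-labelled cells, without overlap (0.57, 0.10 to 1.04). *Ung* was at 12.3, 20.9 and 18.6 CPM against 24.2, 25.6 and 30.1 CPM, also without overlap (−0.69, −1.13 to −0.26). Neither passed after adjustment (adjusted p = 1 for both). The share of all genes whose mice separate in this way was not counted, so no result is read from the lack of overlap. The other 6 of the 8 genes had intervals within −0.36 and 0.55. Of the LZ and DZ cells, 38.9%, 51.0% and 28.5% were DZ cells beside cpm-labelled cells. Beside wild-type-labelled cells 50.5%, 31.3% and 54.8% were, and the part of this zone mixture was not tested.

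The test of the difference between the sorts across the groups, with each mouse as a block, called none of the 8 genes, against 0.0119% of 8382 genes, which is *Igkc* (518 genes had an unadjusted p under 0.05, and DESeq2 called 0). The largest value of the 8 was that of *Ung*, 0.88 (0.09 to 1.67, adjusted p = 0.767), and the others lay between −0.61 for *Exo1* and 0.33 for *Apex1*. The plot of levels by labelled group shows the wide spread of the cpm-labelled CD45.2+ mice behind these intervals.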

How the data were processed

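HEL-binding CD95+ spleen B cells were profiled by droplet 3′ RNA sequencing in 2 sorts, each with an mRNA and a hashtag library. The authors aligned and counted reads with Cell Ranger 5.0.1 against the mm10 reference and analysed them in Seurat 4.0. The deposited matrices hold unique molecule counts per gene, or per hashtag, and cell barcode, without normalization. A deposited table names the mouse and group that each hashtag marks in either sort. It gave the group of each mouse, with 0 columns unused.

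From the counts, barcodes were assigned to mice with HTODemux (quantile 0.99), and cells with 100 to 5500 genes and under 10% mitochondrial counts were kept. Of 24241 CD45.2+ and 5232 CD45.1+ mRNA barcodes, 14617 and 4857 also had hashtag counts, 8048 and 1562 were hashtag doublets, and 6488 and 3204 were kept. More doublets were called, and fewer CD45.2+ cells kept, than in the study, so CD45.2+ values rest on part of its cells. Scrublet called 4 further doublets in each sort and was not used for the filter. Cells were clustered with Seurat 5.3.0 and sctransform 0.4.2 in R 4.3.3 (3000 variable genes without the 8 genes and the repair lists, 30 components, resolution 0.9). A cluster took the name of the study's marker list that shared most genes, at least 3, with its 50 highest genes. The study drew those lists from the same libraries, so names are not independent of the data, and differences from the study's names may come from this rebuilding.

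Counts were summed per mouse, sort and zone and tested with edgeR 4.0.16 (quasi-likelihood, TMM, filterByExpr), with Benjamini-Hochberg adjustment over all genes tested and a threshold of 0.05, X- and Y-linked genes being kept apart. Standard errors were taken from the log2 fold change and the F statistic and are approximate. Mouse was a block in comparisons between sorts, because both sorts came from the same animals. Mouse numbers do not pair animals between the labelled groups. The replicates are mice, 3 per group. Summed LZ and DZ cells held 190766 to 7027659 UMIs per mouse and sort, and intervals on shares of cells (exact, 95%) cover counting error only. States needed 20 cells per mouse. DESeq2 1.42.0, RLE size factors, other filters, hashtag rules, cell sets and resolutions, and leaving out each mouse, were the alternatives. Tests were checked on simulated counts.

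The 8 genes, the 5 repair lists (93 genes) and the motifs were chosen with earlier results of these data known. Named besides the 8 are the list genes that passed a test, except a gene that is counted but not reported here, the 3 per list with the highest DZ level, and the 3 genes most like each member over states (log2(CPM + 10), at least 20 CPM in a state). Members of the lists are read with neither a set test nor an adjustment over the list alone. Genes were matched by symbol to RefSeq promoters of GRCm38.p6, and 6 of 8 were found. Gene positions are those of the annotation of the same build.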

Additional observations from a re-analysis of the deposited data

Results flagged for a closer look

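*Neil1* differed between CD45.2+ and CD45.1+ cells in opposite directions in the zones. In the 3 wild-type-labelled mice the mean difference, CD45.2+ minus CD45.1+ on the log2(CPM + 1) scale, was 0.23 in the DZ, from 0.19 to 0.27, and −0.42 in the LZ, from −0.53 to −0.37. All 3 mice were higher in the DZ and all 3 lower in the LZ. The difference between the zones was not tested, and neither zone alone passed the adjusted threshold in the edgeR fit as reported. With the highest 6% of doublet scores removed both did (0.27, adjusted p = 0.0346, in the DZ and −0.61, adjusted p = 0.0254, in the LZ), and at a clustering resolution of 1.2 the DZ did (0.28, adjusted p = 0.0430). LZ1 cells, which are low in *Neil1*, were more numerous in the CD45.2+ sort, and their part in the LZ value was not tested. In 24 groups of 6 mice, no mouse stood apart from the others beyond the 95% critical value, where chance sets about 1 in 20 groups apart.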

How the results depend on the processing

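Of the zone differences, those over log2(CPM + 5) were 1.91 for *Exo1* in CD45.2+ and 2.47 in CD45.1+ cells. For *Neil1* in CD45.2+ cells the value was 1.36 with hashtags normalized over each cell, 1.43 with a 3-fold hashtag rule and 1.69 with the highest 6% of doublet scores removed. With LZ2 cells as the LZ, chosen after seeing the data, CD45.2+ values were 0.88 for *Neil1*, 0.38 for *Nuggc* and 0.96 for *Top1*, and *Top1* was 0.81 in CD45.1+ cells. All kept their direction. Zone values of the CD45.1+ sort could not be had with hashtags normalized over each cell, since too few cells were left.

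The genes that passed between sorts numbered 1382, 437 by DESeq2, 350 in all B cells outside plasma and T cell clusters, 517 with no replicate block and 732 to 1196 without 1 mouse. In the DZ they were 550, and 180 by DESeq2, 346 with no replicate block, 268 in DZ1, 261 in DZ2 and 357 to 525 without 1 mouse. In the LZ they were 625, and 135 by DESeq2, 409 with doublet scores removed, 261 with no replicate block, 224 in LZ2 and 210 to 412 without 1 mouse. Of the 8 genes, 4 passed in LZ and DZ cells together, 2 by DESeq2, with hashtags normalized over each cell and with no replicate block, 1 in all B cells and 2 to 4 without 1 mouse. *Top1* and *Nuggc* were those called by DESeq2 and with no replicate block, and *Nuggc* alone in all B cells. In the DZ 1 gene instead of 2 passed by DESeq2, with hashtags normalized over each cell, with no replicate block (*Top1* in each) and in DZ1 (*Nuggc*), and 1 to 2 without 1 mouse. With doublet scores removed the 2 were *Neil1* and *Top1*, and at resolution 1.2 *Neil1* passed beside *Nuggc* and *Top1*. *Nuggc* in the DZ passed in 10 of 17 alternatives. In the LZ 2 passed with doublet scores removed, 0 in LZ2 and 0 to 1 without 1 mouse.

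For the cpm label in CD45.2+ cells 1 gene passed, and 1 to 18 without 1 mouse. By DESeq2 2 passed, with no filter on low counts 32, with hashtags normalized over each cell 2 and with the 3-fold rule 3. There were 15 in all B cells, 3 without cells of both sex-linked kinds and 320 in cells of a single sex-linked kind per label. For the difference between sorts across groups 1 passed, and 0 to 15 without 1 mouse. By DESeq2 and with doublet scores removed 0 passed, 30 with no filter and 3 with hashtags normalized over each cell. There were 2 in all B cells, 7 without cells of both kinds and 262 in cells of a single sex-linked kind per label. In cells of a single sex-linked kind per label 2 of the 8 genes passed in each comparison. For CD45.1+ cells 0 genes passed, 5 with no filter and 0 to 1 without 1 mouse. None of the 8 passed for the cpm label, the partner or across groups without any 1 mouse. The cause of these changes was not tested.

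Log2 fold changes that changed sign had not passed in either fit. With hashtags normalized over each cell they were −0.22 for *Apex1*, −0.050 for *Neil1*, −0.28 for *Polh*, −0.17 for *Top1* for the partner, and −0.019 for *Apex1* between sorts in the LZ, and −0.19 for *Msh6* for the cpm label, and 0.076 for *Neil1*, 0.0022 for *Polh*, 0.21 for *Top1* across groups. By DESeq2 they were 0.0078 for *Apex1* between sorts. With no filter they were 0.018 for *Apex1* between sorts. At resolution 1.2 they were 0.0017 for *Apex1* between sorts. With the lists kept in the clustering they were 0.0022 for *Apex1* between sorts. With no replicate block they were 0.0040 for *Apex1* between sorts, and 0.0089 for *Apex1* between sorts in the DZ. Without cells of both kinds they were 0.0045 for *Apex1* between sorts, and 0.054 for *Nuggc*, −0.31 for *Ung* for the cpm label. In DZ2 cells they were 0.46 for *Apex1*, −0.25 for *Exo1*, −0.41 for *Polh*, 0.65 for *Ung* between sorts in the DZ. In LZ2 cells they were −0.023 for *Apex1*, 0.010 for *Msh6*, 0.12 for *Top1* between sorts in the LZ. In cells of a single sex-linked kind per label they were −0.034 for *Apex1*, −0.24 for *Msh6* and −8.23 for *Ung* across groups. For the cpm label in those cells they were −0.40 for *Msh6* and −9.27 for *Ung*. With the 3-fold rule they were 0.00087 for *Exo1*, −0.17 for *Msh6*, −0.0097 for *Ung* for the cpm label, and 0.093 for *Msh6* for the partner, and −0.23 for *Msh6* across groups. In all B cells they were 0.15 for *Exo1*, 0.071 for *Neil1*, 0.084 for *Nuggc*, 0.0085 for *Top1* for the cpm label, and 0.048 for *Msh6* for the partner. With doublet scores removed they were 0.029 for *Exo1* for the cpm label. The *Ung* values of cells of a single sex-linked kind per label depend on the prior count. Without 1 mouse these ranged from −0.044 to 0.26 for *Apex1*, −0.18 to 0.041 for *Msh6*, −0.0027 to 0.13 for *Nuggc* for the partner, and −0.16 to 0.088 for *Apex1*, −0.19 to 0.055 for *Ung* between sorts, and −0.11 to 0.045 for *Apex1* between sorts in the DZ, and −0.50 to 0.088 for *Exo1*, −0.39 to 0.26 for *Msh6*, −0.27 to 0.12 for *Neil1*, −0.41 to 0.0073 for *Nuggc*, −0.65 to 0.016 for *Polh*, −0.37 to 0.011 for *Top1*, −0.75 to 0.49 for *Ung* for the cpm label, and −0.82 to 0.052 for *Msh6* between sorts in the LZ, and −0.42 to 0.46 for *Msh6*, −0.34 to 0.067 for *Neil1* across groups.
Depth limits the cpm-labelled CD45.2+ cells most, at 19 to 42 LZ and DZ cells a mouse. It also limits *Exo1*, *Polh* and *Ung* in the LZ, at 24 UMIs or fewer per mouse. Sort, transgene, allotype and library cannot be told apart, and the labelled groups disagreed with their sex-linked transcripts. Zones and phases share cells.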
